A study of Homo sapiens with 2 samples.

Results

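The DEAD-box and DEAH-box RNA helicases were taken from an RNA-seq table of the human hepatocellular carcinoma cell line Hep3B as the rows with values whose symbol begins with DDX or DHX and a digit, leaving out DDX58 and symbols with a hyphen. This gave 47 genes, 32 named DDX and 15 named DHX, of 11511 genes with values. The series holds 1 library of Hep3B cells given no treatment and 1 library of Hep3B cells given the compound A4368 at 25 µM for 24 h; A4368 is a code name. Both were grown from the same commercial line in DMEM with serum. The comparison concerns the effect of A4368 on expression genome-wide. With 1 library of each kind there is no replicate check, no p-value was computed, and "higher" and "lower" below mean higher and lower in the A4368 library than in the control library. Where a pair of levels is given, the control comes first.

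RNA helicases of these families bind RNA through a conserved core of paired RecA-like domains and use ATP to open short duplexes, to move along RNA or to strip proteins from it. DEAD-box proteins mostly unwind locally and many act as ATP-driven clamps, whereas DEAH-box proteins mostly translocate along single-stranded RNA. They act at every step from transcription to decay, with dedicated sets in the spliceosome, in mRNA export and in the nucleolus, where ribosomes are built. Growing tumour cells, hepatoma cells included, depend on these steps for protein synthesis.

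The families are named after the letters of motif II of the helicase core, which binds the ATP-coordinating metal. The coding bases around it are shown for the 5 members that differed by at least 25% between the libraries and for the export paralog pairs DDX39A with DDX39B and DDX19A with DDX19B, since they show what binds the list together. A search of coding sequences from GENCODE release 29 (GRCh38) found the motif in 45 members. The capitals mark its 4 codons, and the windows hold 48 bases each, 5′ to 3′.
DDX41: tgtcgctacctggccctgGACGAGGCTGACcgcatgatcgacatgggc
DDX59: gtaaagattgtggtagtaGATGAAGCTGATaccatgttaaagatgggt
DHX29: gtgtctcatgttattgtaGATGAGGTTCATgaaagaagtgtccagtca
DHX37: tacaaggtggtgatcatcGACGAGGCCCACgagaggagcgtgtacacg
DDX31: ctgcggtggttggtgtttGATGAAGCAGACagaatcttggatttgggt
DDX39A: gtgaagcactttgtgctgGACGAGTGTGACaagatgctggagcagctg
DDX39B: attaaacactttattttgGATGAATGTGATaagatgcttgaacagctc
DDX19A: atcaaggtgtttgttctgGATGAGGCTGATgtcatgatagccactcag
DDX19B: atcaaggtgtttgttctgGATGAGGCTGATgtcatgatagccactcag

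In 25 DDX members the third codon was an alanine codon and the fourth an aspartate codon, which is the DEAD-box proper. In DDX39A and DDX39B the third codon was TGT, a cysteine codon, in DDX21 and DDX50 it was GTG, a valine codon, and in DDX52 it was TCA, a serine codon. DDX11, which belongs by its core to the DNA helicases, had the histidine codon CAC as the fourth. Among the DHX members 8 had alanine and histidine codons, 4 (DHX29, DHX30, DHX34 and DHX57) had valine before the histidine and 2 (DHX9 and DHX36) had isoleucine there. DHX32 gave no match to the pattern searched, and no coding sequence of DDX17 that began with ATG was found in the annotation used. The DDX19A and DDX19B windows were the same at 48 of 48 bases and the DDX39A and DDX39B windows at 36 of 48.

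Levels are FPKM, that is fragments per kilobase of transcript corrected for library size, so they are per length and can be compared between genes. The members ranged from 0.775 FPKM (DDX43, mean of the libraries) to 235 FPKM (DDX5). DDX43, a germ cell helicase, was the 1 member with a mean under 1 FPKM and was left out of counts and medians, at 0.951 FPKM without and 0.599 FPKM with A4368. The other 46 had a median level of 19.2 FPKM in the control, against 13.9 FPKM for the 11238 genes kept in all. The highest member was DDX5, a coregulator of transcription and splicing, at 246 FPKM without and 223 FPKM with A4368. DDX39B, which recruits export factors to spliced mRNA, stood at 172 and 147 FPKM, and DDX17, the paralog of DDX5, at 145 and 147 FPKM. The plot of levels in both libraries shows these at the upper right, with nearly all members along the diagonal.

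**Figure D1:**
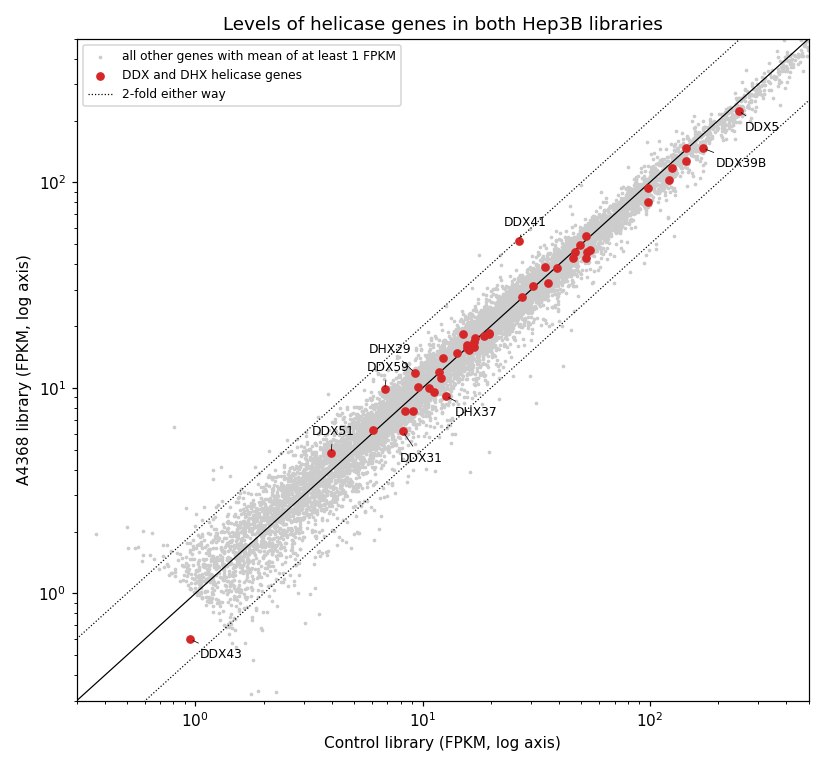
Level of each helicase gene (red) in the control library (x axis, FPKM, log) and in the A4368 library (y axis, FPKM, log), over all other genes kept with values on these axes (grey); the solid line marks equal values and the dotted lines a 2-fold difference. DDX41 lies near the upper dotted line at 26.5 and 51.8 FPKM, and the other members lie closer to the solid line.

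Most members differed little between the libraries, and 1 stood far from the rest. On the scale log2((A4368 FPKM + 1)/(control FPKM + 1)), called the ratio below, 17 members were higher and 29 lower, with a median of -0.06. Of all genes kept, 52.0% were higher and 48.0% lower, with a median of 0.01. When the libraries were given equal sums over all genes except the 50 highest, here called the rescaling, 22 members were higher and 24 lower, with a median of -0.01, so that the share of higher members went from 37.0% to 47.8%, and the share of all genes that were higher went from 52.0% to 60.9%. The count of lower members depended on the scaling, while the share of higher members stayed below that of all genes under both scalings.

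A limit of 25%, meaning that one value on the FPKM + 1 scale was at least 25% above the other, left 41 of the 46 members inside, or 89.1%, against 84.9% of all genes kept. Past it, 3 members were higher (DDX41, DDX59 and DHX29) and 2 were lower (DHX37 and DDX31), which is 6.52% and 4.35% of the members. Among all genes kept, 7.31% were higher and 7.79% lower by that much, so the members' counts lie near the background. At 1.5-fold 1 member was higher, DDX41, against 1.08% of all genes, and 0 were lower, against 2.12%. No member passed 2-fold, which 0.116% of all genes passed upward and 0.436% downward. The ratios of the members had an SD across genes of 0.23, against 0.26 across all genes kept. DDX and DHX members had close medians, -0.06 over 31 DDX genes, 11 of them higher, and -0.07 over 15 DHX genes, 6 of them higher.

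**Figure D2:**
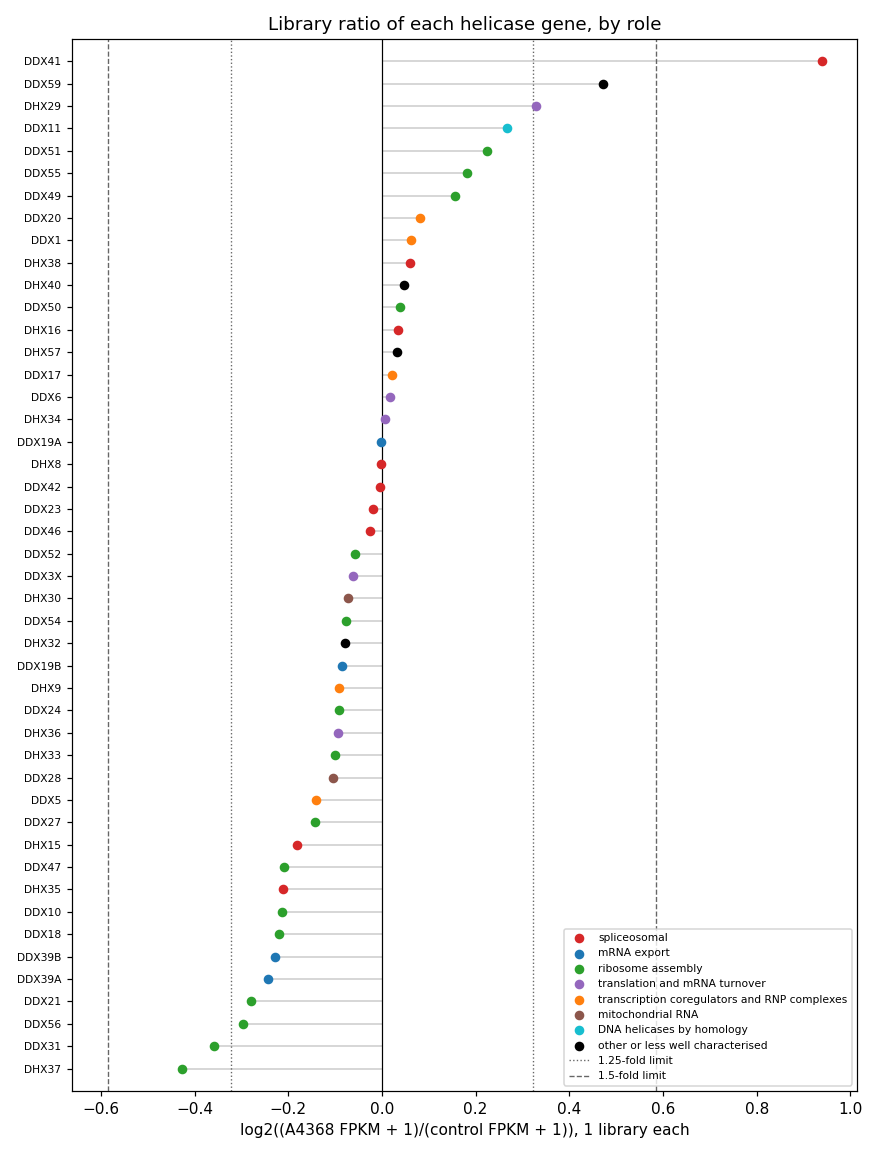
Ratio of each of the 46 members kept (x axis, log2 of FPKM + 1, A4368 over control), ordered from highest to lowest and coloured by role, with dotted lines at a 25% difference and dashed lines at 1.5-fold. DDX41 is the 1 point past 1.5-fold, at 0.94, and most of the lowest points are helicases of ribosome assembly.

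DDX41 was at 26.5 FPKM in the control library and 51.8 FPKM in the A4368 library, a plain ratio of 1.95 and a log2 ratio of 0.94. DDX41 is a DEAD-box protein found in the spliceosome after the first catalytic step. Of the 11238 genes kept, 18 had a ratio as high, DDX41 included. No exon of another gene overlaps it in GENCODE release 29, and 0% of its 31-base words occur in transcripts of other genes. Its ratio kept its side of the 1.5-fold limit under every alternative run. With 1 library per group this is a difference between 2 libraries.

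The other spliceosomal helicases were near their control level. These ATPases drive successive rearrangements of the spliceosome: DDX46 and DDX23 act in its assembly and activation, DHX16 just before and DHX38 between the catalytic steps, DHX8 in release of the mRNA and DHX15 in disassembly. DDX46 was at 39.3 and 38.5 FPKM in the control and the A4368 library, DDX23 at 46.7 and 46.1 FPKM, and DDX42, which associates with the U2 particle, at 49.5 and 49.4 FPKM. DHX16 was at 30.6 and 31.4 FPKM, DHX38 at 14.2 and 14.8 FPKM and DHX8 at 15.7 and 15.6 FPKM. These 6 of the 9 each differed by less than 0.1 log2 units.

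The lower values among the spliceosomal members were those of DHX35 and DHX15. DHX35 was at 9.12 FPKM without and 7.74 FPKM with A4368, 1.18-fold lower. DHX15 was at 145 and 128 FPKM, 1.14-fold lower. The list of 9 had a median ratio of -0.01 as deposited, with 3 higher and 6 lower. After the rescaling its median was 0.04 with 2 lower, against a median of 0.06 and 39.1% lower over all genes kept. DDX23, DDX42, DDX46 and DHX8 lay so close to 0 that they changed sign. One exon region of DHX8 overlaps 68 bases of ETV4 on the opposite strand, and ETV4 was at 11.3 and 3.93 FPKM.

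DHX15 is switched on by G-patch proteins, cofactors that tether it to the spliceosome or to pre-ribosomes. The genes listed are G-patch proteins in general, not partners of DHX15 alone. All 22 were kept, 13 higher and 9 lower, with a median ratio of 0.12. The share higher over all genes kept was 52.0%, with a median of 0.01. At 5 up to 20 FPKM, where the list's median level of 13.7 FPKM lies, 2566 of 4394 genes were higher, with a median of 0.04. AGGF1 was the highest at 7.15 FPKM without and 8.88 FPKM with A4368. GPATCH4, a nucleolar member of that family, was the lowest at 27.9 and 20.7 FPKM, 1.35-fold lower, and was the 1 gene of the list past 25%.

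Helicases of ribosome assembly made up 12 of the 29 lower members. This list has 16 members that work on pre-ribosomal RNA in the nucleolus, most with a well studied yeast counterpart. Of these 16, 12 were lower and 4 higher, with a median ratio of -0.12, against 48.0% lower and a median of 0.01 over all genes kept. After the rescaling 12 were lower again, with a median of -0.07, against 39.1% lower and a median of 0.06 over all genes kept. None was lower by 1.5-fold.

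**Figure D3:**
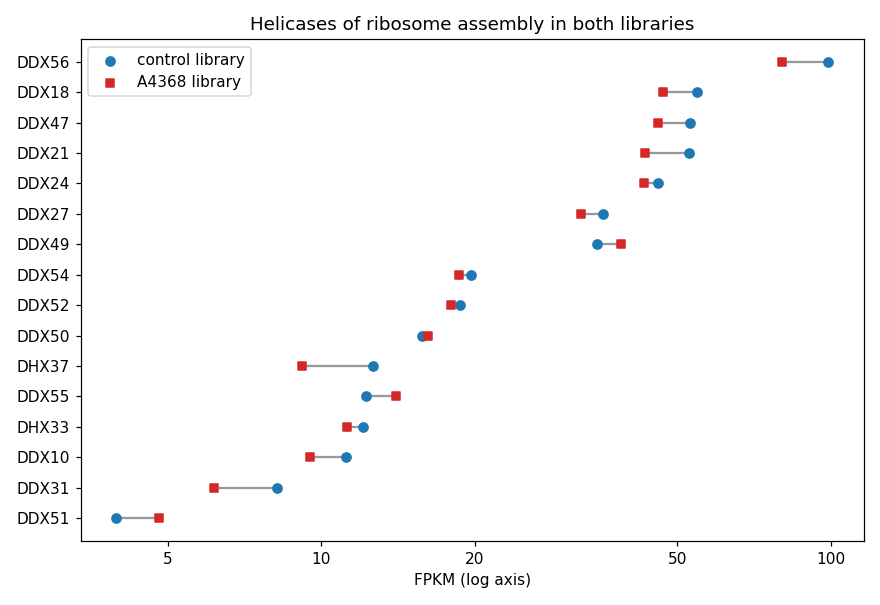
Levels of the 16 helicases of ribosome assembly (x axis, FPKM, log) in the control library (blue circles) and the A4368 library (red squares), ordered by control level. In 12 rows the red square lies to the left of the blue circle, by most in DHX37 and DDX31, and in DDX49, DDX50, DDX51 and DDX55 it lies to the right.

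The lowest ratios of this list were those of DHX37 and DDX31. DHX37, which acts on the U3 particle in the small subunit precursor, was at 12.6 FPKM without and 9.15 FPKM with A4368, 1.38-fold lower. DDX31, a nucleolar helicase, was at 8.18 and 6.16 FPKM, 1.33-fold lower. An exon overlap of 367 bases joins DDX31 to GTF3C4 on the opposite strand, which was at 9.84 and 8.85 FPKM. With a pseudocount of 5 both lay inside the 25% limit, at ratios of -0.32 and -0.24.

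A further 4 nucleolar members, all abundant, were lower by smaller amounts. DDX56 was at 98.7 and 80.2 FPKM, 1.23-fold lower, and DDX21, which links ribosomal RNA transcription and processing, at 52.6 and 43.1 FPKM, 1.22-fold lower. DDX18 was at 54.7 and 46.8 FPKM, 1.17-fold lower, and DDX47 at 52.9 and 45.7 FPKM, 1.16-fold lower. These genes stand well above the median level of the table, so the pseudocount of 1 hardly touches their ratios. DDX47 shares 37.1% of its words with other transcripts, mostly with APOLD1, whose exons it overlaps on the same strand.

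The remaining lower members of this list lay within 1.2-fold. DDX10, an early factor of the small subunit, was at 11.2 and 9.52 FPKM and DDX27, a factor of the large subunit, at 35.7 and 32.3 FPKM. DHX33 was at 12.1 and 11.2 FPKM, DDX24 at 45.9 and 43.0 FPKM, DDX54 at 19.7 and 18.6 FPKM and DDX52 at 18.7 and 18.0 FPKM. The last 4 were lower by at most 1.08-fold.

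The 4 higher members of the list were DDX49, DDX50, DDX51 and DDX55. DDX51 was the highest in ratio and the least abundant of the 46, at 3.96 FPKM without and 4.80 FPKM with A4368. DDX55 was at 12.2 and 14.0 FPKM, and its exons share 536 bases with EIF2B1 on the opposite strand, which was at 36.2 and 33.4 FPKM. DDX49 was at 34.7 and 38.8 FPKM, 1.12-fold higher. DDX50 was at 15.7 and 16.2 FPKM, while DDX21, its neighbour in sequence with 57.1% identical residues, was lower, so that DDX21 made up 77.0% of the pair's sum in the control and 72.7% with A4368.

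All 4 measured helicases of mRNA export had lower values as deposited, though DDX19A had a ratio of only -0.002. Of all genes kept 48.0% were lower. At 100 FPKM or more, where DDX39A and DDX39B lie, 672 of 921 genes were lower. DDX39B and its near copy DDX39A load the export adaptor ALYREF onto mRNA, and DDX19A and DDX19B remodel mRNA at the cytoplasmic face of the nuclear pore. DDX39A was at 122 FPKM without and 103 FPKM with A4368, 1.19-fold lower, and DDX39B was 1.17-fold lower. The pair has 90.0% identical residues but no 31-base word in common, and DDX39A kept 41.4% of their sum in the control and 41.2% with A4368. DDX39B shares 29.4% of its words with other transcripts, largely with the ATP6V1G2-DDX39B read-through.

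The pore helicases were close to their control level. DDX19A was at 16.78 FPKM without and 16.76 FPKM with A4368, and its sign turned to higher after the rescaling and after centring. DDX19B was at 10.6 and 9.96 FPKM. They have 96.0% identical residues, and 18.0% of the DDX19B words occur in DDX19A, so reads may have been divided between them. Both share more words with AC012184.2, whose exons overlap theirs on the same strand: 32.6% of the DDX19B words and 22.4% of the DDX19A words. Their summed level was 27.4 FPKM without and 26.7 FPKM with A4368, 1.03-fold lower.

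Partners in export were mixed. Of 16 genes of the TREX export complex and the pore 5 were higher and 11 lower, with a median ratio of -0.03. The share lower over all genes kept was 48.0%, with a median of 0.01. At 20 up to 100 FPKM, where the list's median level of 34.4 FPKM lies, 1772 of 3447 genes were lower. At 100 FPKM or more, where ALYREF lies, 672 of 921 genes were lower. ALYREF was the lowest at 172 and 139 FPKM, 1.24-fold lower, and the export receptor gene NXF1 the highest at 22.1 and 26.4 FPKM. NXT1, the partner of NXF1, was 1.22-fold lower. None of these 16 genes passed the 25% limit.

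Helicases of translation and mRNA turnover lay within 10% of the control apart from DHX29. DHX29, which helps the scanning small subunit through structured leaders, was at 9.24 FPKM without and 11.9 FPKM with A4368, 1.28-fold higher. DDX3X, which aids translation of mRNAs with structured leaders, was at 98.3 and 94.1 FPKM. DDX6, a repressor and decay factor of P-bodies, was at 27.5 and 27.8 FPKM, DHX36, which unwinds G-quadruplexes, at 19.6 and 18.3 FPKM, and DHX34, a factor of nonsense-mediated decay, at 11.8 and 11.9 FPKM. The list of 5 had 3 higher and 2 lower, with a median of 0.01.

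Of the genes that work with these helicases, the partners of DDX6 were near the control, and 5 of 7 genes of eIF4F and its regulators were lower. Of 10 partners of DDX6 in decay and repression, 6 were higher and 4 lower, with a median of 0.04. LSM14A was the highest at 55.0 and 60.2 FPKM and DCP1B the lowest at 3.65 and 3.16 FPKM. Of 7 genes of the cap-binding complex eIF4F and its regulators 2 were higher and 5 lower, with a median of -0.10. Their median level was 113 FPKM. Of all genes kept 48.0% were lower, and of the 921 genes at 100 FPKM or more 672 were lower. EIF4E, the cap-binding protein gene, was the lowest at 44.0 and 35.0 FPKM, 1.26-fold lower and the 1 gene of the list past the 25% limit, and EIF4G3 the highest at 13.1 and 14.3 FPKM.

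The coregulators and members of other ribonucleoprotein complexes lay close to 0. DHX9, a helicase of long duplexes that acts in transcription, was at 126 FPKM without and 118 FPKM with A4368. DDX1, a subunit of the tRNA ligase complex, was at 52.4 and 54.8 FPKM. DDX20, also known as Gemin3 of the SMN complex, was the highest of the 5 in ratio, at 9.51 and 10.1 FPKM, and DDX5 the lowest, at 1.10-fold lower. The list had 3 higher and 2 lower, with a median of 0.02.

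DDX20 was higher by only 1.06-fold, and most of the SMN complex genes listed were lower. Of 8 of these with values, 2 were higher and 6 lower, with a median of -0.13. The share lower over all genes kept was 48.0%, with a median of 0.01. GEMIN8 was the lowest at 7.95 and 6.14 FPKM, 1.30-fold lower, and GEMIN4, which binds DDX20, was at 19.8 and 16.4 FPKM, 1.20-fold lower. GEMIN7 was the highest at 58.7 and 65.2 FPKM. SMN1 has a near-identical copy, so its value of 5.60 and 4.93 FPKM is uncertain.

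The remaining members fell in small groups. The mitochondrial helicases DDX28 and DHX30, which take part in assembly of the mitochondrial ribosome, were at 8.39 and 7.73 FPKM and at 16.0 and 15.2 FPKM. DDX28 shares 487 of its 2169 exon bases with DUS2 on the opposite strand. DDX11, a DNA helicase of sister chromatid cohesion, was at 15.0 and 18.3 FPKM, 1.22-fold higher, and 24.8% of its words occur in other transcripts.

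Among the less well characterised members DDX59 stood apart. It was at 6.81 FPKM without and 9.83 FPKM with A4368, 1.44-fold higher, and 264 of all genes kept had a ratio as high, DDX59 included. With a pseudocount of 5 its ratio was 0.33, against 0.47 as reported. DHX32 was at 16.8 and 15.9 FPKM, DHX40 at 17.0 and 17.6 FPKM and DHX57 at 6.08 and 6.24 FPKM. The listed genes DDX3Y, DDX4, DDX12P, DDX25, DDX26B, DDX53, DDX60, DDX60L and DHX58 were not analysed here.

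Other RNA helicases, without a DDX or DHX symbol, were listed as well. Of 18 with values 11 were higher and 7 lower, with a median of 0.05. Of all genes kept 52.0% were higher, with a median of 0.01. HELZ2, an interferon-inducible coactivator, was the highest at 3.40 and 4.62 FPKM, 1.36-fold higher, and ZNFX1 the lowest at 4.37 and 3.77 FPKM. EIF4A1 and EIF4A2, the DEAD-box subunits of eIF4F, were at 755 and 678 FPKM and at 305 and 277 FPKM, so EIF4A1 was above every member by level. EIF4A3, the DEAD-box core of the exon junction complex, was at 49.8 and 51.2 FPKM, and SNRNP200, which unwinds the U4 and U6 RNAs, at 64.5 and 68.1 FPKM.

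**Figure D4:**
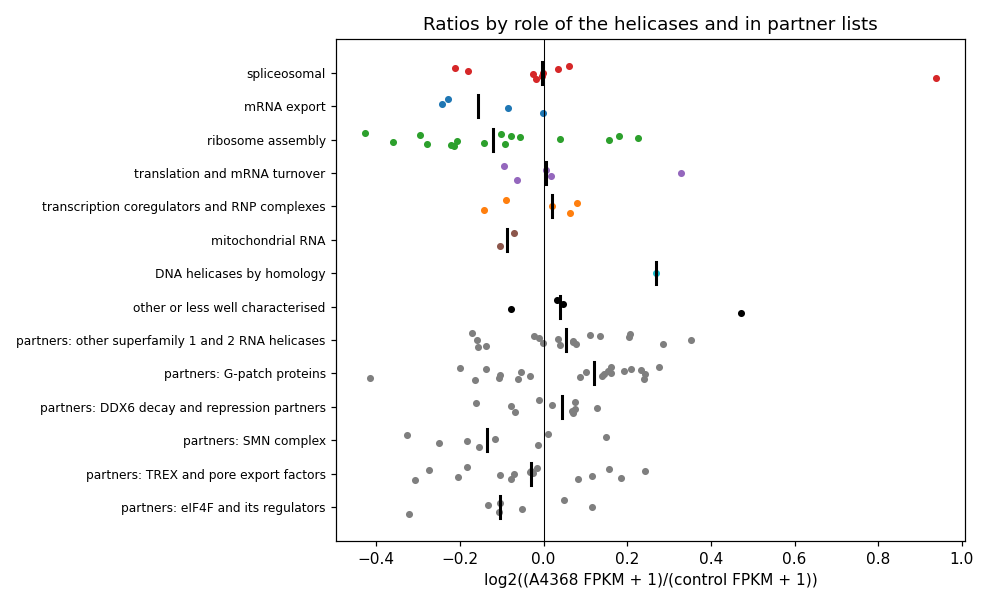
Ratios (x axis, log2 of FPKM + 1, A4368 over control) of the helicases by role (coloured) and of the partner lists (grey), 1 point per gene with the median as a black bar. The ribosome assembly and mRNA export helicases have medians of -0.12 and -0.16 and the G-patch partners a median of 0.12. The median over all genes kept was 0.01. DDX41 lies far to the right of the other spliceosomal members.

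Level, base composition and length were set beside the ratios. Over the 46 members the ratio had a Pearson r of -0.20 with log2 mean FPKM, of 0.08 with the GC percentage of the transcript and of -0.06 with log2 transcript length, values that share the same pair of libraries. Without DDX41 these were -0.31, -0.06 and 0.05, so the signs of r for GC percentage and length rested on that gene. The Spearman rho for length was positive both ways, at 0.02 with DDX41 and 0.06 without it. For GC percentage rho was 0.01 with DDX41 and -0.04 without it. Over 11190 genes kept and matched to a transcript the Pearson r values, in the first order, were -0.09, 0.02 and 0.07. The 6 members at 100 FPKM or more had a median ratio of -0.16, with 5 lower. Of the 921 genes at that level 672 were lower, with a median of -0.07. Part of the lower side thus lay in abundant genes, and the part of level in the members' ratios was not tested.

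Sequences around the start sites, which the rule for members did not use, were then compared. Motif shares vary with the kind of gene, and the members were not matched to other genes by kind or level. RefSeq promoters (GRCh38.p14, 250 bases before to 50 after a start) were found for 43 of the 47 members, with 57 starts. The promoters of DDX41 and DHX37, the highest and lowest ratios, are printed with the matches to 6 motifs in capitals. The motifs, searched on both strands, were GGGCGG, which is the GC box, the CCAAT box by those letters, and TATAAA, the TATA box. The others were the E-box CACGTG, the ETS factor core CCGGAA and, as the core of the cyclic AMP response element, TGACG. No motif holds another, and matches on the reverse strand stand as their reverse complements.
DDX41, chr5:177516912-177517211, minus strand: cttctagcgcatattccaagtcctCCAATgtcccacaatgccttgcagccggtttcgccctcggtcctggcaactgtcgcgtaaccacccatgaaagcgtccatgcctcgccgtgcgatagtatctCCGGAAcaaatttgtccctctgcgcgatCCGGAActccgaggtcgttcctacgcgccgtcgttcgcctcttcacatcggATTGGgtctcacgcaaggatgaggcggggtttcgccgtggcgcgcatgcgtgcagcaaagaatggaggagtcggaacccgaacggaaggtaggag
DHX37, chr12:124989082-124989381, minus strand: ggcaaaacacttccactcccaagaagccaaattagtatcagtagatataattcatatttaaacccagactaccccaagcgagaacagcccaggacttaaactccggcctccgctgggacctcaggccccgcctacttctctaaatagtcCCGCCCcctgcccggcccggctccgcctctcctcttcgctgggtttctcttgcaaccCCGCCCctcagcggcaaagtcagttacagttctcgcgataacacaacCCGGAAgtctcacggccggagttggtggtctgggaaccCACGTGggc

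Of the motifs searched, the ETS core CCGGAA had the widest gap between the members and the background. It lay in 33 of the 57 member promoters, or 57.9%, against 17.2% of all 35116 promoters and 28.2% of the 12989 promoters of genes kept in this table. The DDX41 promoter holds it at 2 places and the DHX37 promoter at 1, so it was present at both ends of the range of ratios. TGACG lay in 47.4% of the member promoters and 32.3% of those of genes kept, CACGTG in 15.8% and 9.55%, CCAAT in 43.9% and 35.1%, GGGCGG in 61.4% and 66.6%, and TATAAA in 7.02% and 5.84%. These are matches of letters in a fixed window, with several starts per gene in some cases.

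Over the table as a whole the median level was 13.3 FPKM for the control and 13.5 FPKM for A4368, at an unknown depth. The 9 markers of hepatocytes and hepatoma listed, ALB and AFP among them, all had values, from 62.5 to 9183 FPKM in the control and from 55.4 to 8930 FPKM with A4368. Of 4 endothelial markers 0 had values, of 4 leukocyte markers 2 (CD14 and LYZ, summing to 20.1 and 11.9 FPKM) and of 5 stellate cell and fibroblast markers 1 (LUM, at 17.9 and 11.9 FPKM). PECAM1, PTPRC, CD3E, COL1A1 and COL1A2 had no value used here.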

How the data were processed

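Total RNA of 1 untreated and 1 A4368-treated Hep3B culture was isolated on columns, per the labels' protocols, and sequenced. Per the submitters' processing notes, the tools were Bowtie2 2.2.3, TopHat2 2.0.12 and Cufflinks, with hg19. The authors deposited values that were read as FPKM, since Cufflinks makes FPKM and the values are not whole, although the header names no unit. No steps of whole reads showed in the 1688 genes below 3 FPKM, where a ratio to 3 decimals recurred at most 6 times. The depth is therefore unknown and no interval could be given.

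Of 24302 lines 11511 held values, and the 11238 whose mean reached 1 FPKM were kept. The ratio was log2((A4368 + 1)/(control + 1)), which understates the change of low genes; folds in words are plain ratios. The members and lists were chosen with earlier results of these data known. Values are given for every member, and for the highest and lowest gene of each partner list, with a few further partners chosen after their values were seen. Shared words are the percentage of a gene's 31-base words found in transcripts of other genes (GENCODE release 29). Residue identity came from global alignment of translated coding sequences, as a percentage of the longer. Because the table may not use GRCh38, only promoters carry coordinates. Alternatives were pseudocounts of 0.1 and 5, no filter or a minimum of 5 FPKM, centring, rescaling, and leaving out members with at least 80% identity. Only the calculation of the ratios was tested on simulated data, and the precision of the library ratios was not tested. Python 3.11.15, numpy 2.4.6, pandas 2.3.3 and Biopython 1.88 were used.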

Additional observations from a re-analysis of the deposited data

How the results depend on the processing

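The count of members lower by the 25% limit was 2 as reported, 0 with a pseudocount of 5 and 1 after the rescaling that leaves out the 50 highest genes. That rescaling also turned the median of the spliceosomal list from -0.01 to 0.044 and its count of lower members from 6 to 2, and it moved the median ratio of all genes kept by 0.05. The rescaling multiplies each library by a factor of its own, so the ratios of all genes move the same way. Why the sums of the libraries differed was not tested. The median ratio of all members stayed below 0 under each of the 7 alternatives run, and the count past 1.5-fold stayed at 1 higher and 0 lower under the 6 in which it was computed. Of 46 single members, 5 changed sign under the rescaling and 2 under centring on genes whose mean reached 10 FPKM, and with a pseudocount of 5 the ratios of 3 members moved by at least 0.1 log2 units. No paired analysis was possible because each group has 1 library. The unknown depth means that the precision of members under 10 FPKM cannot be stated.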
